A study of Mus musculus with 20 samples.

Results

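The genes described here carry calcium signals from the cardiomyocyte cytoplasm to hypertrophic gene expression through calcineurin, NFAT and CaMKII. The 10 members are Rcan1, Ppp3ca, Ppp3cb, Ppp3r1, Nfatc1, Nfatc2, Nfatc3, Nfatc4, Camk2d and Hdac9. They were taken by gene symbol from tables listing 19872 genes at 2 weeks and 19985 genes at 24 weeks, and all 10 were present and passed the filter on low values at both times. RNA was sequenced in bulk from the left ventricle of mice. In dnOGAh-Tg mice a dominant-negative form of O-GlcNAcase, the enzyme that removes the sugar O-GlcNAc from proteins, was overexpressed in the heart alone, and it was induced with doxycycline in the food for 2 weeks or 24 weeks. Control mice were sampled at the same times. The 4 groups (Control at 2 weeks, dnOGAh-Tg at 2 weeks, Control at 24 weeks and dnOGAh-Tg at 24 weeks) held 5 libraries each, 20 in all. The labels used here name neither the promoter behind the transgene nor the age, sex, strain or genotype of the Controls, and they do not say whether Controls ate doxycycline or whether each library was 1 animal. The p-values therefore measure the spread between libraries. The series title names lasting O-GlcNAc elevation, cardiac hypertrophy and mitochondrial function as the subject.

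Calcineurin is a phosphatase switched on by calcium and calmodulin. It consists of a catalytic A subunit, encoded by Ppp3ca, Ppp3cb or the less widely expressed Ppp3cc, and a regulatory B subunit, encoded in heart by Ppp3r1. It dephosphorylates the cytoplasmic NFATc factors, encoded by Nfatc1 to Nfatc4, which then enter the nucleus and act with GATA4 and other factors on hypertrophic genes. Rcan1 encodes a calcineurin inhibitor whose short isoform is itself an NFAT target and is widely used as a readout of calcineurin activity in the heart. Camk2d encodes the main cardiac isoform of CaMKII, a kinase that phosphorylates class IIa histone deacetylases and so releases MEF2. Hdac9 encodes a class IIa deacetylase that represses MEF2 and restrains hypertrophic growth in mouse.

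Recovered reads per library ranged from 22804712 to 50996272. Values are normalized read counts, that is, reads per gene divided by a size factor per library, and were set per time. The Oga row, which checks the labels, was 2521 to 3721 in Control and 21661 to 56078 in dnOGAh-Tg at 24 weeks, and the groups did not overlap. At 2 weeks Oga was 2565 to 4269 in Control, but only 8608 and 6406 in the 2 dnOGAh-Tg libraries whose titles carry the code F11, against 56985, 61206 and 42127 in the other dnOGAh-Tg libraries (codes F13, F14 and F14). What the codes mean is not given, and results at 2 weeks are therefore also given without the F11 libraries. Cardiomyocyte markers (Myh6, Tnnt2, Tnni3, Actc1, Myl2 and Ttn) were abundant in all 20 libraries. Their sum at 24 weeks was 1496211 to 1916096 in Control and 1023938 to 1411167 in dnOGAh-Tg, without overlap. By edgeR and by DESeq2, 3 of these 6 markers were lower at 24 weeks. At 24 weeks 2 of 6 cardiomyocyte markers fell, 3 of 6 fibroblast markers and 1 of 3 endocardial markers rose and 5 of 6 endothelial markers fell, and 0 of 6 macrophage markers and 0 of 2 tested lymphocyte markers passed by limma, by edgeR, by DESeq2 or at an unadjusted p under 0.05. In bulk tissue, fewer cells of a type and less RNA per cell cannot be told apart. The atrial markers Myl7, Myl4, Sln and Bmp10 summed to 59.7 to 99.9 in Control and 443 to 6903 in dnOGAh-Tg at 24 weeks, without overlap. The highest of these sums was in dnOGAh-Tg library 4, against 443 to 694 in the other dnOGAh-Tg libraries. Of the 2 atrial markers tested, 1 rose by limma (Sln, log2 6.33, adjusted p = 2.15e-06) and 2 by edgeR. At 2 weeks the atrial sum was 8816 in Control library 2 against 63.8 to 387 in the other Controls. Libraries also differed in how abundance ran with transcript length. Genes were split into 5 classes by the length of their longest annotated transcript, and Nfatc2, Nfatc3, Camk2d and Hdac9 fell in the longest class. The median log2 deviation of that class minus that of the shortest, called the length trend below, lay between -0.32 and 0.38 in Control libraries at 24 weeks and between -0.66 and 0.28 in dnOGAh-Tg libraries.

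After 24 weeks, 3 of the 10 members passed the test. Rcan1 and Nfatc2 rose and Hdac9 fell, while the 3 calcineurin subunit genes, Nfatc1, Nfatc3, Nfatc4 and Camk2d did not pass. The test was limma on log2 values with Benjamini-Hochberg adjustment over 14676 genes, called at an adjusted p under 0.05. Of all genes tested, 22.5% were called, 11.3% higher and 11.1% lower, so the 3 members called, 2 higher and 1 lower, are near the share of all genes. The members' median log2 difference was -0.08, beside -0.0046 over all genes tested. Groups did not overlap for 1 member, Nfatc2, against 16.7% of all genes tested.

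**Figure D1:**
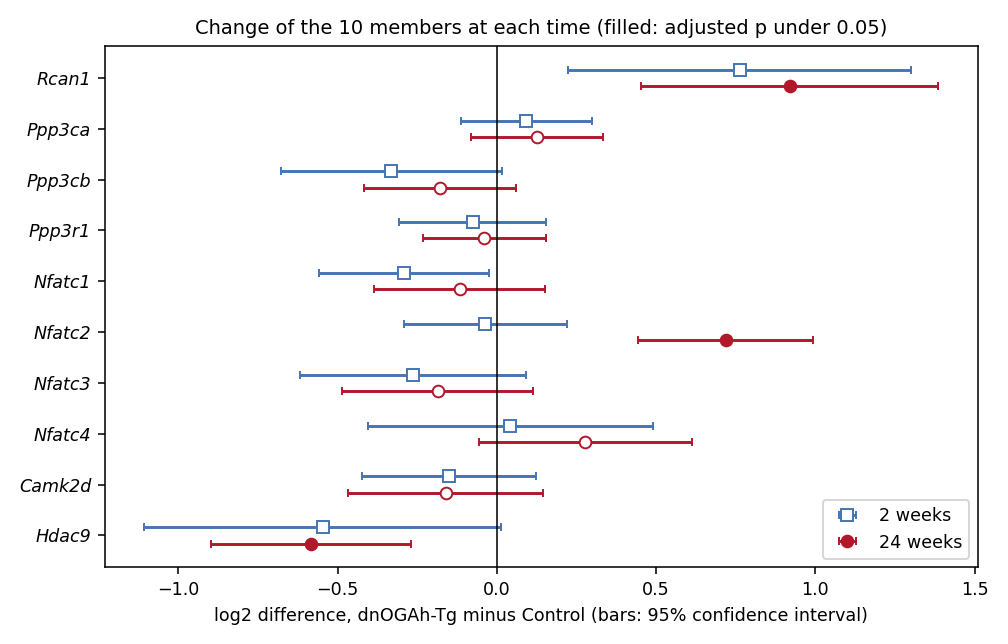
Log2 difference (dnOGAh-Tg minus Control, horizontal axis) of each member (vertical axis) at 2 weeks (squares) and 24 weeks (circles), with 95% confidence intervals from limma; filled symbols have an adjusted p under 0.05. Rcan1 (0.92), Nfatc2 (0.72) and Hdac9 (-0.58) are the members called at 24 weeks, and no member is called at 2 weeks.

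Rcan1, the calcineurin inhibitor on chromosome 16 (GRCm39 positions 92188841 to 92267755), was the member with the largest change. In Control libraries 1 to 5 at 24 weeks it had 5024, 8935, 3844, 4407 and 6728 normalized counts. In dnOGAh-Tg libraries 1 to 5 it had 13262, 11890.1, 7634, 10951 and 9401. Only Control library 2, at 8935, reached into the dnOGAh-Tg range, and it did so above dnOGAh-Tg library 3 alone. The means were 5788 ± 2065 and 10628 ± 2185 (SD, n = 5), a rise of 1.89-fold (log2 0.92, SE 0.22, adjusted p = 0.0082 by limma). Each title code occurs once in each group at 24 weeks, and Rcan1 was higher in dnOGAh-Tg in 5 of 5 codes, by 1.33-fold to 2.64-fold. With the length and GC trend of each library removed, the log2 difference was 0.83 (adjusted p = 0.0054 by limma).

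The windows around the starts of the 3 called members are shown so that their bases can be read beside the values. RefSeq windows of 250 bases before to 50 bases after a start (build GRCm38.p6) were used for 8 of the 10 members, 12 windows in all. No window was used for Ppp3ca or Nfatc1, so nothing is said here of cores near their starts or of whether RefSeq lists such windows. Capitals mark the NFAT core GGAAA or its reverse complement TTTCC, and all lines read in the direction of the gene. Rcan1 has a pair of starts 66091 bases apart, both on the minus strand. The upstream window is chr16:92466120-92466419 and the downstream one, which opens the short isoform, is chr16:92400029-92400328. Nfatc2 is shown at chr2:168601608-168601907 and Hdac9 at chr12:34528840-34529139, both on the minus strand.
Rcan1, upstream start: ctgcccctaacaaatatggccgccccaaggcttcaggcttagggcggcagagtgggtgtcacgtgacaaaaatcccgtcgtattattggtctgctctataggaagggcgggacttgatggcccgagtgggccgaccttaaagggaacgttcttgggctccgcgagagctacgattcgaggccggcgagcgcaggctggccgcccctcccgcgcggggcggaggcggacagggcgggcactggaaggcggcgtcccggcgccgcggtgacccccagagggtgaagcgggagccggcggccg
Rcan1, downstream start: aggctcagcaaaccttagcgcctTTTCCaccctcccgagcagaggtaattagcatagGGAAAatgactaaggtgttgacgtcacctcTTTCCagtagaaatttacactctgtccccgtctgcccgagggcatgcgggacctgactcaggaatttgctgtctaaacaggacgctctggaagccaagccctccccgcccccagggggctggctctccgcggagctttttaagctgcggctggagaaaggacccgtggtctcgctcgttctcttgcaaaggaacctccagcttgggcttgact
Nfatc2: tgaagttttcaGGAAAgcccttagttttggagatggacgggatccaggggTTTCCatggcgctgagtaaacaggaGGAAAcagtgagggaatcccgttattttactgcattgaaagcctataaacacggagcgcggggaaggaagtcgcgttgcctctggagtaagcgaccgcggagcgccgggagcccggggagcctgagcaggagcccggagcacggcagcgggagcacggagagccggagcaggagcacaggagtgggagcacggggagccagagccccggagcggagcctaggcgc
Hdac9: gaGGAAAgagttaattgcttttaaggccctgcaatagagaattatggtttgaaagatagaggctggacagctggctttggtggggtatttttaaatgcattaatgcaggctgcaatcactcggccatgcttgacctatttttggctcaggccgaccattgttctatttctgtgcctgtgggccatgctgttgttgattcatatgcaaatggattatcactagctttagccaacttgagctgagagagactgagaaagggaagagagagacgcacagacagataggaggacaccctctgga
The downstream Rcan1 window held 3 cores, 227, 193 and 163 bases before the start, and the upstream window held 0. The Nfatc2 window shown held 3, at 239, 200 and 175 bases before the start, and the Hdac9 window shown held 1 at 248. Each of these genes has a further window that is not printed, which held 1 core for Nfatc2 and 2 for Hdac9. The windows shown matched the starts of 3 Nfatc2 transcripts and 1 Hdac9 transcript of GENCODE, and the further windows 2 and 0. Over all members, 9 of 12 windows held at least 1 core. Outside the 3 called members, the window of Ppp3cb held 4 cores, that of Nfatc4 held 3 and that of Camk2d held 1. The Ppp3r1 window held 0, and the Nfatc3 windows held 1 and 0. Windows with 3 or more cores were thus not confined to the called members. Of 32851 RefSeq windows, 61.3% held at least 1 core and 9.42% held at least 3. The MEF2 consensus motif, searched on both strands, was in 0 of the 12 windows and in 3.19% of all windows. These matches describe letters and not binding, and the gene-level counts do not separate the Rcan1 starts.

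Rcan1 has a pair of paralogs, Rcan2 and Rcan3, which also bind calcineurin. Per kilobase of merged exon, Rcan2 was the most abundant of the family in Control and Rcan3 the least. At 24 weeks Rcan1 had 1876 ± 669 normalized counts per kilobase in Control and 3445 ± 708 in dnOGAh-Tg, Rcan2 had 3687 ± 285 and 2785 ± 356, and Rcan3 had 82.0 ± 9.76 and 74.0 ± 12.6 (SD, n = 5). In dnOGAh-Tg at 24 weeks Rcan1 thus stood above Rcan2, by less than the SD of Rcan1. Rcan2 fell (log2 -0.41, SE 0.10, adjusted p = 0.0114 by limma), but its call was lost under quantile normalization (adjusted p = 0.145 by limma). The part of the lower cardiomyocyte marker sum in the Rcan2 fall was not tested. Rcan3 did not pass the test (log2 -0.16, SE 0.13, adjusted p = 0.438 by limma).

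The calcineurin subunits gave small differences. Ppp3ca, the catalytic Aα gene, was 2600.3 to 3035 in Control and 2621 to 3713 in dnOGAh-Tg at 24 weeks. Ppp3cb, the catalytic Aβ gene whose loss blunts hypertrophy in mouse, was 2237 to 2750 in Control and 1741 to 2588 in dnOGAh-Tg. Ppp3r1, the regulatory gene, was 2370.2 to 2813 in Control and 2179 to 2787 in dnOGAh-Tg. The groups overlapped for all 3 genes. The limma differences were 0.12 for Ppp3ca (95% interval -0.08 to 0.33, adjusted p = 0.386), -0.18 for Ppp3cb (-0.42 to 0.06, adjusted p = 0.276) and -0.04 for Ppp3r1 (-0.23 to 0.15, adjusted p = 0.792), all in log2. Of the exon bases of Ppp3r1, 14.3% are shared with Wdr92 on the same strand, so its counts are less certain. The remaining catalytic gene, Ppp3cc, fell from 1063 ± 51.6 to 887 ± 90.2 (SD, n = 5, log2 -0.27, adjusted p = 0.0448 by limma).

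Set within each library, the ratio of Ppp3ca to Ppp3cb does not depend on how libraries were scaled. At 24 weeks it was 0.988 to 1.36 in Control and 1.05 to 2.13 in dnOGAh-Tg, a log2 difference of 0.30 (exact permutation test, two-sided, p = 0.167, adjusted over 4 ratio tests p = 0.222). At 2 weeks it was 0.866 to 1.29 in Control and 1.03 to 2.28 in dnOGAh-Tg, a log2 difference of 0.42 (exact permutation test, two-sided, p = 0.0952, adjusted p = 0.190). Neither difference exceeded the spread between libraries, and the high dnOGAh-Tg values came from library 5 at 2 weeks and library 2 at 24 weeks. Those are the libraries with the most negative length trend of their groups, -0.88 and -0.66, and the part of that trend in the ratio was not tested.

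Among the NFAT genes, Nfatc2 (chromosome 2, GRCm39 positions 168318330 to 168443577) was the member that passed. NFATc2 is best known from T lymphocytes and is also expressed in cardiomyocytes. In Control libraries 1 to 5 at 24 weeks it had 381, 403, 574, 374 and 510 normalized counts. In dnOGAh-Tg libraries 1 to 5 it had 679, 773, 776, 673 and 741. Every dnOGAh-Tg library lay above every Control library, and the dnOGAh-Tg libraries varied less (coefficient of variation 6.82%) than the Controls (19.9%). The means were 449 ± 89.2 and 728 ± 49.7 (SD, n = 5), a rise of 1.64-fold (log2 0.72, SE 0.13, adjusted p = 0.00143 by limma), and Nfatc2 was higher in 5 of 5 title codes, by 1.35-fold to 1.92-fold. It remained called with the length and GC trend removed (log2 0.70, adjusted p = 0.00143 by limma). Values of other cell types stood beside this rise. Of the 2 lymphocyte markers tested, Cd3e had 11.7 to 17.7 normalized counts in Control and 15.1 to 41.3 in dnOGAh-Tg, and Cd4 had 12.96 to 35.6 and 18.2 to 62.4, and both ranges overlapped between the groups. The 6 fibroblast markers summed to 31865 to 41584 in Control and 45874 to 70995 in dnOGAh-Tg, and the 6 endothelial markers to 38602 to 45216 and 26078 to 33979. The 3 endocardial markers summed to 1531 to 1868 in Control and 3263 to 5198 in dnOGAh-Tg, without overlap. Of these, Npr3 rose (log2 1.83, adjusted p = 1.06e-05 by limma), while Plvap (log2 0.28, adjusted p = 0.277 by limma) and Cytl1 (log2 -0.11, adjusted p = 0.702 by limma) did not pass. The part of these cell types in the Nfatc2 result was not tested.

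The other NFATc genes did not pass at 24 weeks. Nfatc1, which is prominent in endocardium during valve formation, was 525 to 684 in Control and 454 to 668 in dnOGAh-Tg (log2 -0.12, 95% interval -0.39 to 0.15, adjusted p = 0.537 by limma). Nfatc3, which mediates calcineurin-driven hypertrophy in mouse, was 798 to 1149 in Control and 662 to 1005 in dnOGAh-Tg (log2 -0.19, 95% interval -0.49 to 0.11, adjusted p = 0.370 by limma). Nfatc4, the NFAT first linked to GATA4 in heart, was 126 to 210 in Control and 174 to 246 in dnOGAh-Tg (log2 0.28, 95% interval -0.06 to 0.61, adjusted p = 0.222 by limma). The groups overlapped for all 3. A small share of Nfatc3 exon bases, 1.87%, overlaps Esrp2 on the opposite strand, and the strand used in counting is not given. Per kilobase of merged exon, the order in Control at 24 weeks was Nfatc1 (81.6 ± 9.21) and Nfatc3 (80.8 ± 13.7), which did not differ beyond their spread, then Nfatc2 (42.4 ± 8.43) and Nfatc4 (28.9 ± 5.83). In dnOGAh-Tg it was Nfatc1 (75.6 ± 12.1), Nfatc3 (71.1 ± 11.8), Nfatc2 (68.9 ± 4.70) and Nfatc4 (34.7 ± 4.71), and the first 3 lay within their spread.

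**Figure D2:**
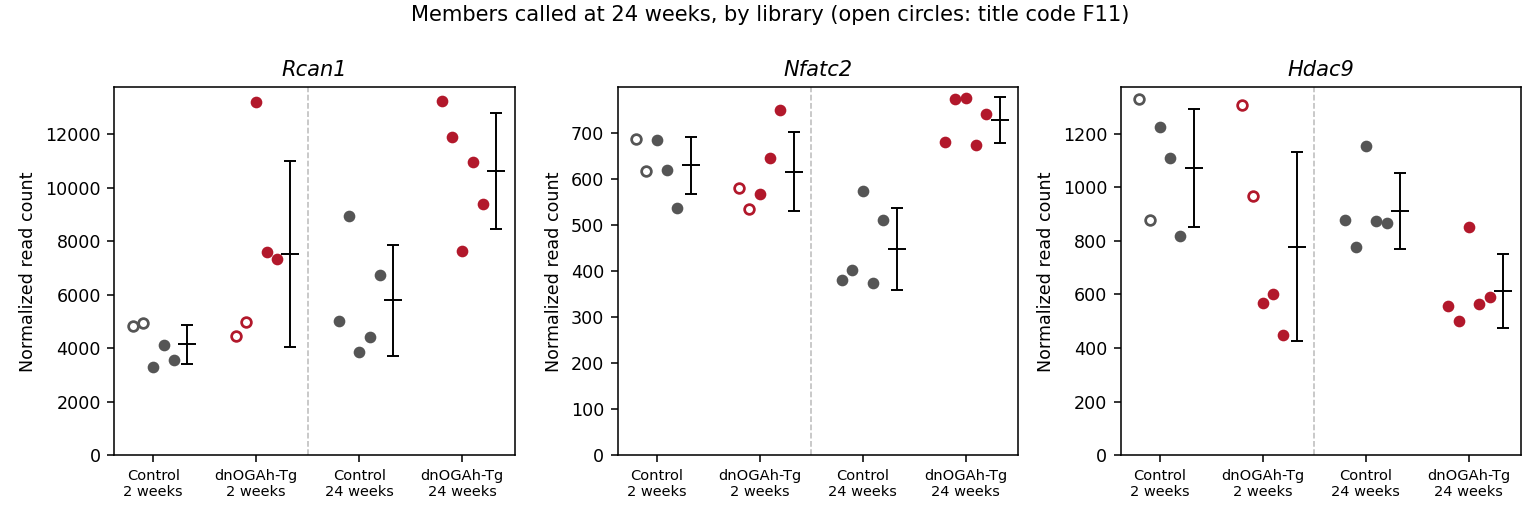
Normalized read counts (vertical axis) of Rcan1, Nfatc2 and Hdac9 in each library, by group (horizontal axis), with mean and SD beside the points; open circles are libraries with title code F11, and levels are comparable within a time only. At 24 weeks Nfatc2 in dnOGAh-Tg (673 to 776) lies above every Control library (374 to 574), while Rcan1 overlaps through Control library 2 and Hdac9 through dnOGAh-Tg library 3.

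Camk2d, the cardiac CaMKII gene, was 4307 to 6508 in Control and 3833 to 6093 in dnOGAh-Tg at 24 weeks, and the ranges overlapped (log2 -0.16, 95% interval -0.47 to 0.14, adjusted p = 0.449 by limma). Its paralog Camk2b, an isoform better known from brain and skeletal muscle, rose from 659 ± 175 to 1604 ± 212 (SD, n = 5, log2 1.31, SE 0.16, adjusted p = 1.17e-04 by limma), and the ranges 491 to 920 and 1367 to 1819 did not overlap. Camk2a (log2 -0.07, adjusted p = 0.732 by limma) and Camk2g (log2 0.14, adjusted p = 0.519 by limma) did not pass. Per kilobase of merged exon, Camk2b rose from 72.2 ± 19.2 to 176 ± 23.2, while Camk2g was 282 ± 58.5 and 308 ± 46.1, Camk2d 242 ± 37.7 and 217 ± 41.4, and Camk2a 180.4 ± 27.8 and 172 ± 31.5. The merged exons of Camk2d cover 22.5 kilobases, which lowers its value per kilobase. Per kilobase of longest transcript in Control at 24 weeks, Camk2d was 986 ± 154 and Camk2g 488 ± 101. By the same measure Camk2a was 271 ± 41.8 and Camk2b 159.8 ± 42.4.

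The ratio of Camk2d to the sum of Camk2a, Camk2b and Camk2g was lower in dnOGAh-Tg at 24 weeks. The part of each gene in that difference was not tested. In Control libraries 1 to 5 at 24 weeks the ratio was 1.66, 1.34, 1.29, 1.35 and 1.55. In dnOGAh-Tg libraries 1 to 5 it was 0.931, 0.803, 1.02, 1.22 and 1.06. The groups did not overlap, and the log2 difference was -0.52 (exact permutation test, two-sided, p = 0.00794, the smallest that 5 against 5 can give, adjusted over 4 ratio tests p = 0.0317). At 2 weeks the ratio was 1.18 to 1.52 in Control and 1.26 to 1.52 in dnOGAh-Tg, a log2 difference of -0.0093 (exact permutation test, two-sided, p = 0.897). The call at 24 weeks ended when any 1 of the 10 libraries was left out (exact permutation test, adjusted p = 0.0635). It also ended when libraries were paired by replicate number, which at 24 weeks is also pairing by title code (exact paired permutation test, adjusted p = 0.190 with the other ratio tests left unpaired). In both the unadjusted p was the smallest possible, 0.0159 and 0.0625. The ratio compares reads and not molecules, since the genes differ in length. Camk2d is in the longest class. At 24 weeks dnOGAh-Tg library 2, with the lowest ratio (0.803), had a length trend of -0.66, the most negative of its group. Library 4, with the highest ratio (1.22), had 0.28, the most positive. In Control the lowest ratio (1.29) was in library 3, with a trend of 0.38, and the highest (1.66) in library 1, with 0.27. The part of the length trend in this ratio was not tested.

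**Figure D3:**
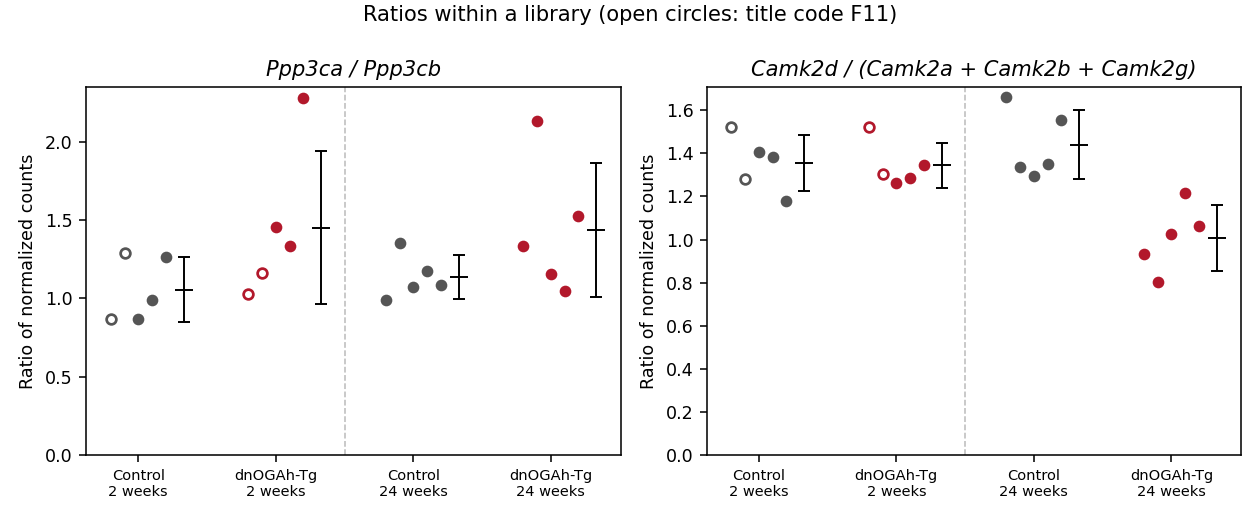
Ratio of normalized counts within each library (vertical axes) for Ppp3ca to Ppp3cb and for Camk2d to the sum of the other Camk2 genes, by group (horizontal axis), with mean and SD; open circles are title code F11. At 24 weeks the Camk2d ratio spans 1.29 to 1.66 in Control libraries and 0.803 to 1.22 in dnOGAh-Tg libraries, and the Ppp3ca to Ppp3cb ratio overlaps at both times.

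Hdac9 (chromosome 12, GRCm39 positions 34097579 to 34967094), the MEF2 repressor, was the member that fell. In Control libraries 1 to 5 at 24 weeks it had 879, 778, 1153, 876 and 867 normalized counts. In dnOGAh-Tg libraries 1 to 5 it had 555, 503, 851, 565 and 589.8. The groups overlapped through dnOGAh-Tg library 3 alone, which shares its title code with the highest Control library. The means were 911 ± 142 and 613 ± 137 (SD, n = 5), a log2 difference of -0.58 (SE 0.14, adjusted p = 0.0114 by limma). Hdac9 was lower in dnOGAh-Tg in 5 of 5 title codes, with ratios of 0.632 to 0.738. Its call was lost when all 20 libraries shared a fit (adjusted p = 0.0736 by limma), and it held with the length and GC trend removed (log2 -0.52, adjusted p = 0.0033 by limma). The part of the lower cardiomyocyte marker sum at 24 weeks in the Hdac9 result was not tested. The other class IIa deacetylases did not pass. Their log2 differences were -0.12 for Hdac4 (adjusted p = 0.513 by limma), 0.0044 for Hdac5 (adjusted p = 0.984 by limma) and -0.20 for Hdac7 (adjusted p = 0.154 by limma). Per kilobase of merged exon in Control at 24 weeks, Hdac5 (390.2 ± 60.9) and Hdac7 (186 ± 15.4) lay above Hdac9 (62.1 ± 9.65) and Hdac4 (44.1 ± 6.84).

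Over the 10 members, levels per kilobase of merged exon in Control at 24 weeks ran from Rcan1 (1876 ± 669) and Ppp3r1 (811 ± 67.0) through Ppp3cb (286 ± 23.9), Ppp3ca (285 ± 16.6) and Camk2d (242 ± 37.7) to Nfatc1, Nfatc3, Hdac9 (62.1 ± 9.65), Nfatc2 and Nfatc4. The neighbours Ppp3cb, Ppp3ca and Camk2d lay within their spread, as did Nfatc1 and Nfatc3. This order depends on the length used. Per kilobase of longest transcript, Camk2d in the same Controls was 986 ± 154, above Ppp3cb (658 ± 55.0) and Ppp3ca (598 ± 34.9). In dnOGAh-Tg, Nfatc2 (68.9 ± 4.70) stood above Hdac9 (41.8 ± 9.34), the reverse of their order in Control.

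After 2 weeks no member passed the limma test, and 2 of the 10, Rcan1 and Nfatc1, had an unadjusted p under 0.05. By limma 0 of 14584 genes were called (0%), and 3551 genes (24.3%) had an unadjusted p under 0.05. With recovered reads edgeR also called 0 genes, and DESeq2 called 850, of which Rcan1 was the only member (adjusted p = 0.0308 by DESeq2). Rcan1 in Control libraries 1 to 5 was 4821, 4957, 3317, 4104 and 3568. In dnOGAh-Tg libraries 1 to 5 it was 4444, 4981, 13207, 7586 and 7341. The F11 libraries 1 and 2 lay among or just above the Controls and the other 3 dnOGAh-Tg libraries lay above every Control. The log2 difference was 0.76 (SE 0.25, adjusted p = 0.132 by limma). Within F11 the ratio of dnOGAh-Tg to Control means was 0.964, and within F14 it was 2.04.

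Hdac9 at 2 weeks showed the opposite pattern over the same libraries. Control libraries 1 to 5 had 1328, 876, 1226, 1109 and 818, and dnOGAh-Tg libraries 1 to 5 had 1306, 967, 569, 600.3 and 449. The F11 libraries lay within the Control range and the other 3 dnOGAh-Tg libraries lay below every Control (log2 -0.55, SE 0.26, adjusted p = 0.213 by limma). These 3 libraries also had the most negative length trends among dnOGAh-Tg, -0.80, -0.54 and -0.88, against 0.24 and -0.41 in the F11 libraries, and Hdac9 is in the longest class. With the trend removed the Hdac9 difference was -0.32 (adjusted p = 0.229 by limma), and that of Rcan1 was 0.67 (adjusted p = 0.103 by limma). The 6 macrophage markers summed to 4966, 5517 and 5608 in the same 3 libraries, to 3324 and 3519 in the F11 libraries and to 2336 to 3732 in Control. By limma and edgeR 0 of these 6 markers were called at 2 weeks, while 3 were higher by DESeq2 and 3 at an unadjusted p under 0.05. Beyond the fit with the trend removed, the part of the length trend in the 2-week Rcan1 and Hdac9 differences was not tested. The part of macrophages in them was not tested either.

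Without the F11 dnOGAh-Tg libraries, 4 members were called at 2 weeks, against 34.1% of 14293 genes. Rcan1 rose (log2 1.14, adjusted p = 0.00251 by limma), and Hdac9 (-0.97, adjusted p = 0.00261), Ppp3cb (-0.55, adjusted p = 0.0130) and Nfatc1 (-0.38, adjusted p = 0.0452) fell. The dnOGAh-Tg libraries left here had length trends of -0.80, -0.54 and -0.88, and the part of that trend in these calls was not tested. Over all 2-week libraries, removing the trend moved Ppp3cb from -0.33 to -0.27 and Nfatc1 from -0.29 to -0.19. Without all F11 libraries, 3 members were called, Rcan1, Hdac9 and Ppp3cb, against 22.7% of 13879 genes. Leaving out dnOGAh-Tg library 1 alone gave calls for Rcan1 (adjusted p = 0.0196 by limma) and Hdac9 (adjusted p = 0.0254 by limma), beside 3360 of 14461 genes. Nfatc2 at 2 weeks was 538 to 688 in Control and 535 to 750.0 in dnOGAh-Tg, with 1 dnOGAh-Tg library above the Control range and 1 below it (log2 -0.04, SE 0.12, adjusted p = 0.858 by limma), and it was not called without the F11 libraries either. Ppp3ca, Ppp3r1, Nfatc3, Nfatc4 and Camk2d were not called in any of these settings. In Nfatc4 the highest value at 2 weeks was 269 in Control library 2, the library with high atrial markers, against 131 to 160.0 in the other Controls. That library also had a fibroblast marker sum of 61279 against 32008 to 39569, and the part of either in the Nfatc4 value was not tested.

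**Figure D4:**
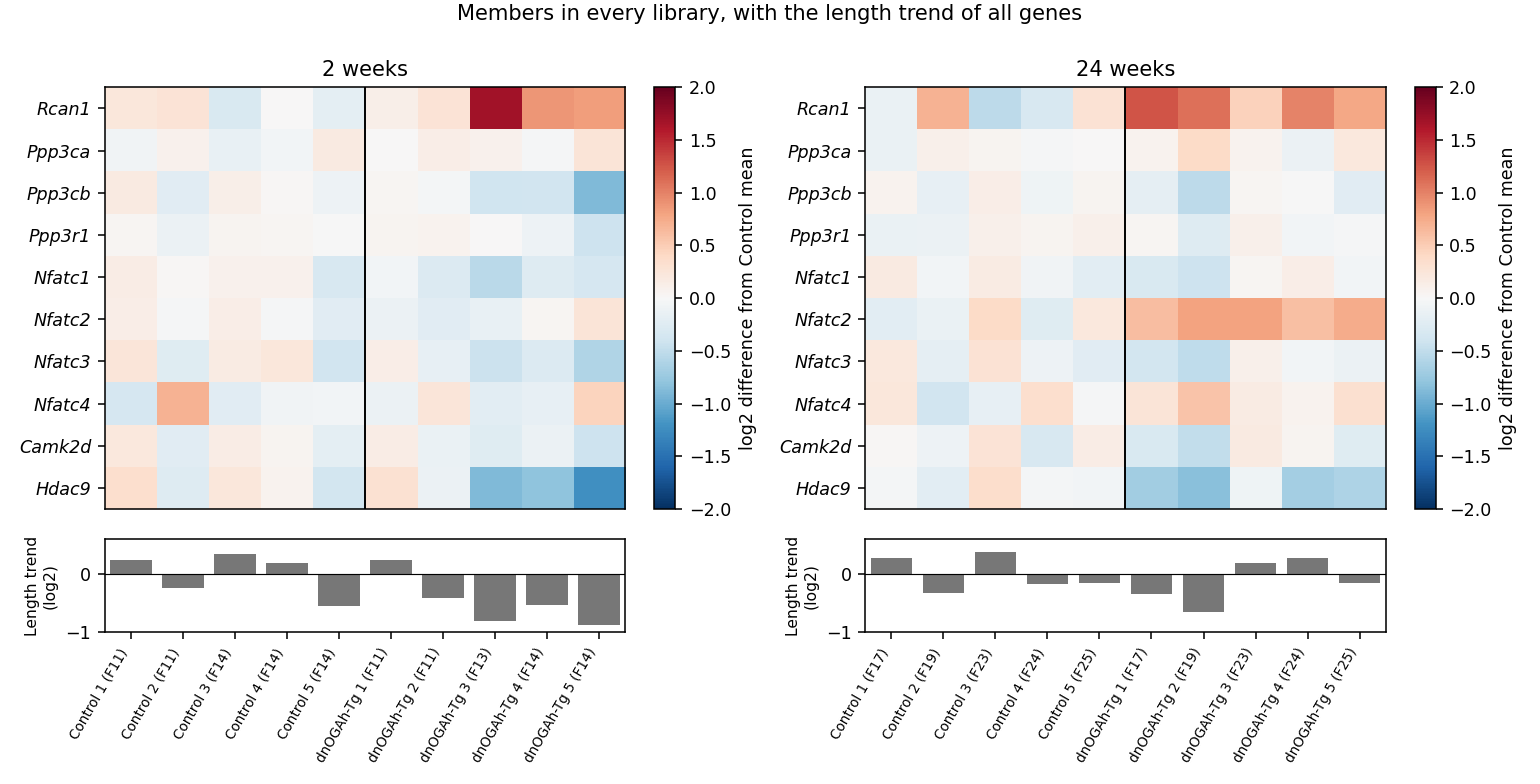
Log2 difference of each member from the Control mean of its time (colour) in each library (columns, with title codes), above the length trend of all genes in that library (bars, log2 of the longest class minus the shortest). At 24 weeks Rcan1 lies above and Hdac9 below the Control mean in all 5 dnOGAh-Tg libraries. Both differ least in library 3, which falls within the Control range for both genes. At 2 weeks Rcan1 is high and Hdac9 low in dnOGAh-Tg libraries 3 to 5.

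The change at 24 weeks minus the change at 2 weeks was tested in a fit of all 20 libraries over 14339 genes, of which 1.76% were called. Nfatc2 was the member called, with a difference of 0.75 in log2 (SE 0.17, adjusted p = 0.0289 by limma). It followed from a log2 change of -0.04 at 2 weeks and 0.72 at 24 weeks. Its adjusted p rose to 0.0586 without the F11 dnOGAh-Tg libraries, to 0.166 without all F11 libraries and to 0.106 with the length and GC trend removed, all by limma. The call was also lost on leaving out any of 8 single libraries, namely Control 1, Control 3, Control 4 or dnOGAh-Tg 2 of 2 weeks, or Control 1, Control 2, Control 4 or dnOGAh-Tg 1 of 24 weeks (adjusted p = 0.0504 to 0.0701 by limma). The difference itself lay between 0.57 and 0.85 under every alternative run. For Rcan1 (0.16, adjusted p = 0.881 by limma) and Hdac9 (-0.04, adjusted p = 0.971 by limma) the difference did not pass, and both turned sign without the F11 dnOGAh-Tg libraries (-0.22 and 0.39).

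The wider pathway was read from 4 lists. Of 25 tested calcineurin and NFAT partners, 2 rose and 4 fell at 24 weeks by limma, beside 11.3% higher and 11.1% lower over all genes tested. The share of the list called by limma is thus near the 22.5% of all genes, and the list's median log2 difference was -0.07. By edgeR 4 rose and 4 fell, and by DESeq2 5 rose and 4 fell. At an unadjusted p under 0.05 by limma, 6 were higher and 5 lower. Lmcd1, a LIM protein that promotes calcineurin signalling in mouse heart, rose from 1685 ± 188 to 2890.0 ± 431 (SD, n = 5, log2 0.77, adjusted p = 5.04e-04 by limma). Cib1, which anchors calcineurin at the sarcolemma, rose (log2 0.46, adjusted p = 0.0301 by limma), but its call was lost without any of 7 single libraries (Controls 1, 3, 4 and 5 and dnOGAh-Tg 1, 2 and 5, adjusted p = 0.0506 to 0.0834 by limma). Gsk3a, a kinase that returns NFAT to the cytoplasm, fell (log2 -0.34, adjusted p = 0.0135 by limma), and 28.3% of its exon bases overlap a gene on the opposite strand. Rcan2 and Ppp3cc, given above, were also among the genes that fell.

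Of 21 tested CaMKII, class IIa deacetylase and MEF2 genes, 6 rose and 1 fell at 24 weeks by limma, with a median log2 difference of 0.02. Over all genes tested, 11.3% were higher and 11.1% lower. By edgeR 5 rose and 0 fell, and by DESeq2 6 rose and 3 fell. At an unadjusted p under 0.05 by limma, 7 were higher and 3 lower. Besides Camk2b, the risers by limma were Mef2b (log2 1.26, adjusted p = 0.00183 by limma), the CaMKII inhibitor gene Camk2n1 (log2 0.56, adjusted p = 0.00784 by limma), Camkk2 (log2 0.44, adjusted p = 0.0164 by limma), Camkk1 and Camk1d. Camkk2 encodes a kinase upstream of other calmodulin kinases, and its call was lost without the F19 libraries (adjusted p = 0.0502 by limma). Mef2b was low, at 24.3 ± 6.85 in Control and 57.8 ± 6.34 in dnOGAh-Tg. The more abundant Mef2a (log2 -0.47, adjusted p = 0.0574 by limma), Mef2c (0.11, adjusted p = 0.575) and Mef2d (-0.26, adjusted p = 0.0687) did not pass. The gene that fell by limma was Camta2 (log2 -0.23, adjusted p = 0.0451 by limma), a transcription coactivator that class IIa deacetylases repress.

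Upstream, 9 of 20 tested Gq receptor and transducer genes fell at 24 weeks and 0 rose by limma, and 0 rose at an unadjusted p under 0.05, by edgeR or by DESeq2. Over all genes tested, 11.1% fell and 11.3% rose. The median log2 difference of the list was -0.34. Adra1a, an α1-adrenergic receptor gene, fell from 516 ± 166 to 146 ± 41.8 (SD, n = 5, log2 -1.80, SE 0.23, adjusted p = 1.53e-04 by limma). The receptor genes Adra1b (log2 -0.93, adjusted p = 4.28e-04 by limma) and Ednra (log2 -1.04, adjusted p = 4.42e-04 by limma) also fell, as did Rgs2, which turns Gq signals off (log2 -1.02, adjusted p = 2.21e-04 by limma). For none of these 4 genes did the groups overlap. Ednra, Rgs4 and Rgs5 are abundant in vascular mural cells, and the 6 mural markers, of which Rgs5 is also a member of the Gq list, summed to 40877 to 51429 in Control and 21205 to 34267 in dnOGAh-Tg. The part of mural cells in these falls was not tested.

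Downstream, 6 of 10 hypertrophy genes rose at 24 weeks by limma and 0 fell, with 1 lower at an unadjusted p under 0.05 and 0 lower by edgeR or DESeq2. Over all genes tested, 11.3% rose. The median log2 difference of the list was 0.92. Nppa, the atrial natriuretic peptide gene, rose from 14300.1 ± 6458 to 208402 ± 76406 (SD, n = 5) with a log2 difference of 3.97 (SE 0.38, adjusted p = 1.81e-05 by limma), and 61.5% of its exon bases overlap a gene on the opposite strand. The atrial marker sums given above were also higher in every dnOGAh-Tg library, and their part in the Nppa result was not tested. The skeletal actin gene Acta1 (log2 2.84, adjusted p = 5.21e-05 by limma), the stretch-responsive Ankrd1 (log2 1.18, adjusted p = 0.00616 by limma) and the intercalated disc gene Xirp2 (log2 1.14, adjusted p = 1.58e-04 by limma) also rose. Myh7, the slow myosin of fetal heart (log2 -0.67, adjusted p = 0.165 by limma), and Gata4 (log2 0.07, adjusted p = 0.623 by limma) did not pass. At 2 weeks limma called 0 genes in each of the 4 lists. Unadjusted p-values under 0.05 were found for 3 higher and 3 lower of 26 tested calcineurin and NFAT partners and for 1 higher and 4 lower of 21 CaMKII, deacetylase and MEF2 genes, shares near the 24.3% of all genes. They were also found for 1 higher and 7 lower of 20 Gq genes and for 4 higher and 1 lower of 10 downstream genes. At that time edgeR called 0 of these genes, and DESeq2 called 4 downstream genes higher, 1 CaMKII list gene higher and 1 lower, and 1 Gq gene lower.

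**Figure D5:**
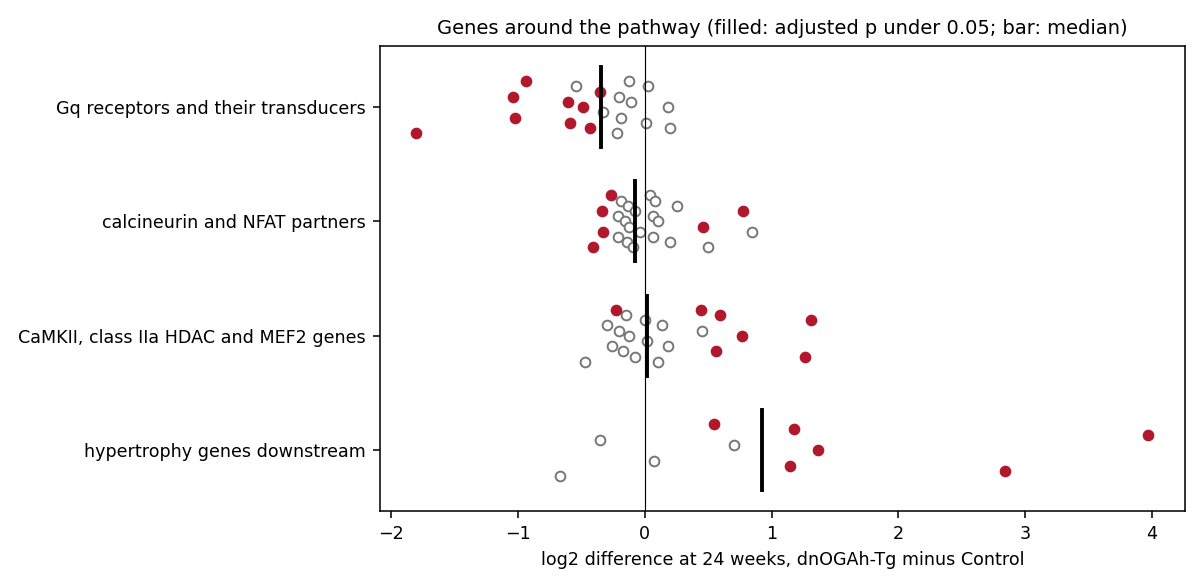
Log2 difference at 24 weeks (horizontal axis, dnOGAh-Tg minus Control) of every tested gene of the 4 lists (rows); filled points have an adjusted p under 0.05 by limma and the bar is the list's median. The medians are -0.34 (Gq), -0.07 (calcineurin and NFAT partners), 0.02 (CaMKII, deacetylases and MEF2) and 0.92 (downstream genes), beside -0.0046 over all genes.

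The genes whose pattern was most like that of Rcan1 were found over 20 libraries, as the smallest root mean square difference of log2 values standardized within each time, among 12983 genes. They were Abra (0.271), Lman1l (0.309) and Nppb (0.357), where the lowest possible value is 0. Abra, an actin-binding protein of striated muscle, was 2866 ± 986 in Control and 7682 ± 2154 in dnOGAh-Tg at 24 weeks (log2 1.44, adjusted p = 5.91e-04 by limma), and Nppb, the brain natriuretic peptide gene, was 15927 ± 8476 and 37273 ± 11405 (log2 1.37, adjusted p = 0.0156 by limma). Lman1l was low, at 81.2 ± 41.2 and 237 ± 77.5. These genes were chosen because they follow Rcan1 in these same libraries, so their rises at 24 weeks are not independent of that choice. Hdac9 ranked 12786 of the 12983, near the far end, and Nfatc2 ranked 4147.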

How the data were processed

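Gene expression was measured by bulk RNA sequencing in 20 left ventricle libraries, 5 in each of 4 groups. Per the submitters' processing notes, the build was GRCm39 and the tools included STAR 2.7.3a, Trim Galore 0.6.6 with cutadapt 2.6, and DESeq2 in R 4.0.3. Read counter, annotation and strand: not given in the sources used here. For each time the authors deposited normalized signal values, that is, counts of reads divided by a library's size factor. Every value above 0 was a whole multiple (tolerance 0.01 read) of a step specific to its library, which gave back whole reads.

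Each time was tested in its own table with limma 3.58.1 (R 4.3.3) on log2(value + 1), two-sided, after a filter (10 or more in 5 or more libraries), adjusted by Benjamini-Hochberg over all tested genes. Such fold changes understate the change of low genes. Differences between times used a fit of the 4 groups. The 2 ratios were tested at each time by exact permutation, adjusted over these 4 tests. Lengths came from GENCODE vM21 (GRCm38), joined by gene identifier, and promoters from RefSeq (GRCm38.p6). The fits were tested on simulated data.

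The members, lists and tests were chosen with earlier results of these data known. Named were all 10 members, Oga, from each list up to 4 called genes with the smallest p-values, and the 3 genes most like Rcan1. Other named genes (paralogs, Camta2, Camkk1, Camk1d, MEF2 genes, Myh7, Gata4, Cd3e, Cd4, Plvap, Cytl1) were chosen after their values were seen. Adss1 is listed as Adssl1. Results of 2 list genes are not reported here. Alternatives were pseudocounts of 0.5 and 5, no filter or one of 50, TMM, quantile normalization, robust moderation, edgeR 4.0.16 and DESeq2 1.42.0 on recovered reads, replicate and title code blocks, a shared fit, a threshold of 0.01, omission of each library in turn and omission of F11 libraries. Removing a loess trend (span 0.5) over length and GC, and leaving out the F19 libraries, were added after seeing the data.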

Additional observations from a re-analysis of the deposited data

Results flagged for a closer look

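Among 48 groups of 5 values tested for a value far from the rest, 3 held one, about as many as the 1 in 20 that chance gives. They were the highest Control library for Nfatc4 at 2 weeks (269 normalized counts, library 2), the highest Control library for Hdac9 at 24 weeks (1153, library 3) and the highest dnOGAh-Tg library for Hdac9 at 24 weeks (851, library 3). The 2 Hdac9 libraries share the title code F23. They also had positive length trends, 0.38 and 0.18, and the part of that trend in the Hdac9 values was not tested.

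The change at 24 weeks minus that at 2 weeks differed by limma for 1 member, Nfatc2 (log2 0.75, adjusted p = 0.0289). It also differed for 7 of the list genes named, by the same test, beside 1.76% of all genes tested. List genes were named by small p-values at 24 weeks, and those values also enter this difference, so the count is not independent of that choice. Among all tested list genes, 1 of 25 calcineurin and NFAT partners and 1 of 21 CaMKII list genes differed. So did 3 of 20 Gq genes and 2 of 10 downstream genes. The difference was positive for Acta1 (1.85, adjusted p = 0.0347), Camk2b (1.28, adjusted p = 0.00211), Xirp2 (1.13, adjusted p = 0.0129) and Lmcd1 (0.66, adjusted p = 0.0365), and negative for Ednra (-0.84, adjusted p = 0.0452), Adra1b (-0.84, adjusted p = 0.0340) and Rgs2 (-0.82, adjusted p = 0.0355). The 2 F11 dnOGAh-Tg libraries with low Oga are among the 2-week libraries behind each of these differences.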

How the results depend on the processing

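At 24 weeks the calls of Rcan1 and Nfatc2 held in all 26 settings and that of Hdac9 in 24. Counts of genes called at 24 weeks moved by more than 1.5 times only at an adjusted p under 0.01 (1814, against 3296), and leaving out each library gave 2473 to 3119. At 2 weeks the count of genes, 0 by limma, became 850 with DESeq2, 241 with a replicate block, 1157 with all 20 libraries in a fit, 4879 without the F11 dnOGAh-Tg libraries and 3148 without all F11 libraries, and leaving out each library gave 0 to 3360. Without Control 5 it was 448 and without dnOGAh-Tg 1 it was 3360. Members called at 2 weeks, 0 by limma, were 1 with DESeq2, 4 without the F11 dnOGAh-Tg libraries, 3 without all F11 libraries and 0 to 2 on leaving out each library. For the difference between times, 252 genes became 531 with DESeq2, 422 with a replicate block, 40 at 0.01, 31 without all F11 libraries, 458 with the length and GC trend removed, 122 without the F19 libraries and 99 to 683 on leaving out each library. The 1 member called there became 0 at 0.01, without the F11 dnOGAh-Tg libraries, without all F11 libraries, with the trend removed and without the F19 libraries, and 0 to 1 on leaving out each library. The cause of these moves was not tested. The Camk2d ratio at 24 weeks ran from -0.59 to -0.44 on leaving out each library, with an exact permutation p of 0.0159, the smallest possible, and adjusted p = 0.0635, so fewer libraries alone end that call. At 2 weeks it ran from -0.058 to 0.035. Uncalled differences that turned sign were Nfatc2 at 2 weeks (0.053 and 0.090 without F11 dnOGAh-Tg or all F11 libraries, 0.15 with the trend removed, -0.11 to 0.011 on leaving out each library), Ppp3r1 at 2 weeks (-0.11 to 0.010) and 24 weeks (-0.074 to 0.016) and Nfatc4 at 2 weeks (-0.060 to 0.22). For the difference between times they were Rcan1 (-0.22 and -0.39 in the F11 settings, -0.0039 to 0.39 on leaving out each library), Hdac9 (0.39 and 0.37, -0.21 to 0.18), Camk2d (0.028 with quantile normalization, 0.094 and 0.10 in the F11 settings, 0.045 without F19, -0.096 to 0.072), Ppp3ca (-0.022 with the trend removed, -0.0097 without F19, -0.034 to 0.092), Nfatc3 (-0.028 with the trend removed, -0.0045 to 0.18) and Ppp3r1 (-0.050 to 0.091).

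Whether the replicate numbers in the titles pair the libraries is not given, and the main fits used no pairing. Same-numbered libraries were each other's best match at number 1 of 2 weeks and at numbers 2 and 3 of 24 weeks. The correlation of same-numbered deviations from group means was 0.38, -0.17, -0.21, 0.05 and 0.17 for numbers 1 to 5 at 2 weeks and -0.02, 0.52, 0.39, -0.15 and 0.06 at 24 weeks. With the replicate number as a block, 3921 genes were called at 24 weeks, against 3296 without it, and no member call changed. The Camk2d ratio at 24 weeks kept its value of -0.52 with an exact paired permutation p of 0.0625, the smallest that 5 pairs can give, and adjusted p = 0.190. The other ratio tests in that adjustment were left unpaired. At 24 weeks number and title code coincide. With a title code block at 2 weeks, 0 genes were called and the lone F13 library added nothing to the change.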
